A study of Arabidopsis thaliana with 41 samples.

Results

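The sucrose synthase genes SUS1 to SUS6 of Arabidopsis thaliana were described in developing embryos of 2 genotypes. The members were the 6 genes whose locus identifiers belong to the family, of 33544 genes listed, with the assembled transcripts of each gene that share a structure with the reference summed. The study sequenced RNA from embryos dissected out of seeds, from wild type and from val1, a mutant of VAL1 (AT2G30470), which encodes a transcriptional repressor with a B3 DNA-binding domain. The val1 allele is not given in the sources used here, and both genotypes were grown alike with no treatment. The ages were 7, 8, 10, 12, 13, 15 and 17 days, which made 14 groups. Of the 41 libraries 2 were of wild type at day 17, and the other groups had 3 each. Nothing in the labels says whether the 3 biological replicates of the design came from separate plants, so p-values measure the spread between these libraries. Wild-type and val1 embryos were dissected side by side by more than 1 person, and which person handled which embryos is not given.

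Sucrose synthase cleaves sucrose with UDP into UDP-glucose and fructose, in a reversible reaction. Invertases cleave the same sugar irreversibly into glucose and fructose, and sucrose phosphate synthase acts in the opposite direction. In a seed that fills with oil, the embryo imports sucrose from the mother plant, and its cleavage feeds glycolysis, cell wall and starch synthesis and the fatty acids of the storage oil. SUS1 and SUS4 are a closely related pair known from responses to low oxygen. SUS2 and SUS3 are known from seeds, and SUS5 and SUS6 from the sieve elements of the phloem, where callose is made.

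From day 8 on, the summed FPKM of the 6 genes was almost wholly that of SUS2 and SUS3, one after the other. At day 7 SUS6 held a mean of 10.9% of this sum in wild type and 9.55% in val1, and SUS1 2.74% and 5.8%. In wild type SUS2 (AT5G49190) rose from 3.52 ± 0.485 scaled FPKM at day 7 to 376 ± 38.7 at day 10 (SD, n = 3 each) and fell to 2.17 ± 1.49 at day 15. SUS3 (AT4G02280) rose from 0.657 ± 0.259 at day 7 to 358 ± 39.8 at day 15. In val1 SUS3 was lower than in wild type at days 12 and 13, and SUS2 was higher at day 15. SUS6 (AT1G73370) was near 1 FPKM in the youngest embryos and listed at 0 in the oldest, and SUS1 (AT5G20830), SUS4 (AT3G43190) and SUS5 (AT5G37180) never reached 1 FPKM in any library.

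FPKM is a level per transcript length and per amount of sequenced RNA, so levels of different genes can be set side by side. Levels below are FPKM scaled between libraries unless called deposited. Differences are on the log2(scaled FPKM + 0.5) scale of limma, which understates changes of low genes, given with a standard error, SE, and a p adjusted by Benjamini-Hochberg over 18389 tested genes. A gene was called where that p was under 0.05. In bulk RNA, fewer cells of a type and less RNA per cell cannot be told apart. Absolute depth is unknown, since every library sums to the same total, and the smallest steps of the values gave relative depths over a 6.22-fold range, lowest in val1 at day 7, replicate 2. The 4 embryo markers summed to at least 349 in every library, lowest in wild type at day 7. Of them, CRU3, a storage protein gene, reached 300000 and OLEO1, an oil body gene, 74500, both in wild type at day 15. FUS3 reached 103. LEC1 reached 64.9 in wild type at day 7 and was at 0 in 15 libraries. The 5 endosperm markers summed to between 0.0474 and 4.09 in any library and the 2 guard cell markers to at most 0.327. The 7 seed coat markers summed to between 1.02 and 25.9, and MUM4 reached 13.7, the highest of the 7. VAL1 itself was lower in val1 at each age, from 1.41 ± 0.659 against 11.6 ± 1.61 at day 7 (SD, n = 3 each) to 2.48 ± 0.544 (n = 3) against 5.94 ± 0.495 (n = 2) at day 17. Libraries of the same age did not overlap. A pair of libraries stood apart from the others of their groups in SUS2: wild type at day 13, replicate 2, and val1 at day 15, replicate 2. Tests of SUS2 at days 13 and 15 and of the steps that end or begin there are given with and without them where they enter the groups compared. In the other genotype replicate 2 was also the lowest in SUS2. It was at 201 in val1 at day 13 and at 0.72 in wild type at day 15. A fit without 1 of these libraries keeps the same-numbered library of the other genotype.

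The 6 genes lie at separate sites of the genome. In the reference assembly TAIR10.1, SUS2 runs from 19943181 to 19947588 on the minus strand of chromosome 5 in 15 exons, and SUS3 from 994726 to 998991 on the plus strand of chromosome 4 in 12 exons. SUS1 and SUS5 also lie on chromosome 5, SUS4 on chromosome 3 and SUS6 on chromosome 1. Coding sequences of SUS2 and SUS3 were 71.7% identical over 2412 aligned bases, and those of SUS1 and SUS4 84.3%. All other pairs were 61.5 to 68.2% identical. No pair shared a stretch of 75 bases, the read length, in the coding sequence.

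The sequences just upstream of the SUS2 and SUS3 starts are shown because these are the members in which the genotypes differed, SUS2 higher in val1 at day 15 and SUS3 lower at days 12 and 13. Capitals mark matches to 3 motifs searched on both strands: the AW-box, which WRI1 of oil synthesis binds, the RY core CATGCA, which B3 proteins such as VAL1, ABI3, FUS3 and LEC2 bind, and the ABRE core ACGTG of the abscisic acid response. The SUS2 window is chr5:19947589-19947688 on the minus strand and stops after 100 bases at the next gene, AT5G49200. The SUS3 window is chr4:994426-994725 on the plus strand, 300 bases. Both are from the TAIR10.1 assembly of RefSeq and end at the base before the annotated start.
SUS2: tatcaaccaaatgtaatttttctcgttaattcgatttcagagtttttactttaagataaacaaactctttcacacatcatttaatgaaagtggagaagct
SUS3: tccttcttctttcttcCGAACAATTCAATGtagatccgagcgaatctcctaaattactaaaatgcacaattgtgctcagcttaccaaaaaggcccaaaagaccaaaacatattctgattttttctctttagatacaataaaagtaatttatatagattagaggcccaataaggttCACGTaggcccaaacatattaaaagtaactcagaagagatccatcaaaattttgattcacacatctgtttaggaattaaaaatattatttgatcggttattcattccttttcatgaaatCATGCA
The SUS2 window held none of the 3 motifs. Of 27443 protein-coding genes, 3.6% held the AW-box, 3.1% the RY core and 12.0% the ABRE core in a window of that length. The SUS3 window held 1 of each, the AW-box and the ABRE core on the other strand. They began 284 and 125 bases before the start, and the RY core 6 bases before it. Of windows of 300 bases, 11.0% held the AW-box, 10.3% the RY core and 25.6% the ABRE core. These matches are letters in a window and say nothing of binding.

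SUS2 had the highest level of the 6 genes from day 7 to day 12 in both genotypes. In wild type its level was 3.70, 3.90 and 2.98 at day 7, then 63.3, 33.3 and 63.3 at day 8, and 373, 416 and 339 at day 10. It was 326, 279 and 294 at day 12 and 161, 59.9 and 199 at day 13. By day 15 it was 2.09, 0.72 and 3.70, and at day 17 the pair of libraries had 0.37 and 0.97. The groups of days 7, 8 and 10 did not overlap, and those of days 10 and 12 lay close, with 339 the lowest of the one and 326 the highest of the other. The drop after day 13 left no wild-type library above 3.70.

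In val1, SUS2 was 3.69, 2.00 and 1.82 at day 7, 18.4, 15.0 and 28.0 at day 8, 277, 332 and 280 at day 10 and 307, 250 and 293 at day 12. It was 239, 201 and 245 at day 13, 21.8, 4.15 and 26.7 at day 15 and 1.59, 0.67 and 1.86 at day 17. Levels at days 10 and 12 overlapped. Of the day 15 libraries replicate 2 was the low one, and all 3 lay above every day 17 library.

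**Figure D1:**
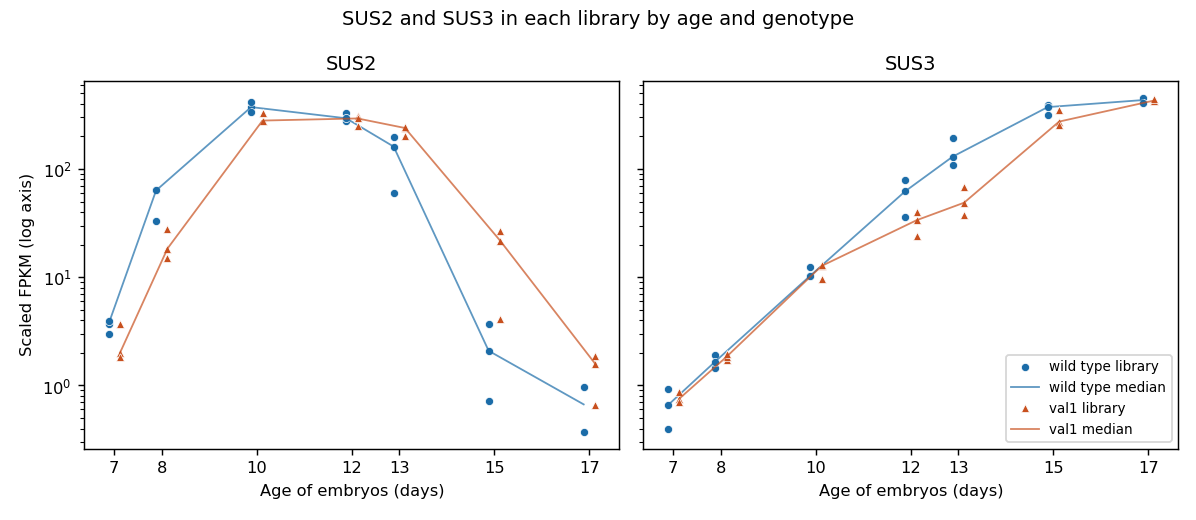
Scaled FPKM of SUS2 (left) and SUS3 (right) in each of the 41 libraries on a log axis, against the age of the embryos in days, with circles for wild type, triangles for val1 and lines through the group medians. SUS2 rises to day 10 and is nearly gone by day 15 in wild type, while val1 triangles stay higher at day 15; SUS3 rises throughout, with val1 below wild type at days 12 and 13.

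SUS2 rose early in both genotypes. From day 7 to day 8 it rose by 3.69 (SE 0.46, adjusted p = 4.72e-07) in wild type and by 2.81 (adjusted p = 3.85e-05) in val1. From day 8 to day 10 it rose by 2.86 (adjusted p = 3.2e-06) and by 3.87 (adjusted p = 1.47e-08). Of all tested genes 8.02% and 10.6% rose in the first step and 27.9% and 28.8% in the second, wild type first. From day 10 to day 12 neither genotype passed the test, at -0.33 (adjusted p = 0.661) and -0.06 (adjusted p = 0.955).

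The fall of SUS2 began between days 12 and 13 in wild type, where the difference was -1.26 (SE 0.46, adjusted p = 0.0459) and 12.5% of tested genes fell. The call ended in 18 of 41 fits that left out 1 library, and without wild type at day 13, replicate 2, the value was -0.74 (adjusted p = 0.393). In val1 the same step was -0.31 (adjusted p = 0.823). Between days 13 and 15 SUS2 fell by 5.72 (adjusted p = 1.51e-11) in wild type and by 4.01 (adjusted p = 1.14e-08) in val1. In these steps 28.8% and 29.2% of tested genes fell. Without val1 at day 15, replicate 2, the val1 value was -3.21 (adjusted p = 1.55e-07), a fold change more than 1.5 times smaller, and without wild type at day 13, replicate 2, the wild-type value was -6.24 (adjusted p = 4.67e-12). Between days 15 and 17 SUS2 fell by a further 2.98 (adjusted p = 4.31e-06) in val1, as 25.0% of tested genes did. Without val1 at day 15, replicate 2, that value was -3.78 (adjusted p = 1.05e-08), again a move of more than 1.5 times. Wild type was at -1.07 (adjusted p = 0.109) in that step, from a level already near the lower end of the scale. Its value was -1.55 (adjusted p = 0.0212) without wild type at day 15, replicate 2, and -1.07 (adjusted p = 0.0395) without val1 at day 15, replicate 2.

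SUS3 followed a different course. In wild type its level was 0.40, 0.65 and 0.92 at day 7, 1.93, 1.45 and 1.66 at day 8 and 12.5, 10.3 and 10.3 at day 10. It reached 78.3, 36.1 and 62.2 at day 12, 130, 194 and 108 at day 13 and 388, 373 and 313 at day 15, and the day 17 libraries had 455 and 411. No wild-type library overlapped with one of a younger group.

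The val1 libraries had 0.75, 0.70 and 0.86 at day 7, 1.73, 1.84 and 1.96 at day 8 and 12.7, 13.0 and 9.57 at day 10. They had 39.9, 23.9 and 33.6 at day 12 and 48.8, 68.4 and 37.6 at day 13, groups that overlapped. At day 15 they had 274, 347 and 253 and at day 17 429, 423 and 441. The step from day 12 to day 13 was small in val1, and the one after it the largest of the 6.

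SUS3 rose by 0.93 (adjusted p = 0.00432) in wild type and 0.88 (adjusted p = 0.00506) in val1 from day 7 to day 8, and by 2.40 (adjusted p = 1.43e-10) and 2.37 (adjusted p = 1.91e-10) from day 8 to day 10. From day 10 to day 12 it rose by 2.30 (SE 0.23, adjusted p = 3.17e-09) in wild type and 1.41 (adjusted p = 2.02e-05) in val1, where 11.8% and 10.5% of tested genes rose. The step from day 12 to day 13 was 1.31 (adjusted p = 8.5e-05) in wild type, with 8.96% of genes rising. In val1 it was 0.65 (adjusted p = 0.11), and 0.85 (adjusted p = 0.0412) without val1 at day 13, replicate 3. From day 13 to day 15 SUS3 rose by 1.35 (adjusted p = 9.01e-06) in wild type and 2.51 (adjusted p = 1.29e-10) in val1, against 24.7% and 24.0% of genes. The last step was 0.28 (adjusted p = 0.457) in wild type and 0.58 (adjusted p = 0.0382) in val1, where 18.7% of tested genes rose. The val1 call ended without val1 at day 15, replicate 1 or 3, or without any 1 of the 3 libraries at day 17 (adjusted p from 0.0711 to 0.15), and with no scaling of the libraries (0.35, adjusted p = 0.29). Neighbouring steps share a group of libraries.

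Over all ages, SUS2 and SUS3 passed the test for change with age in both genotypes, as did 95.3% of tested genes in wild type and 95.7% in val1, so these calls alone do not set the pair apart.

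Set against each other within a library, SUS2 and SUS3 give a ratio that does not depend on how libraries are scaled. In wild type SUS2 FPKM was 29.9, 40.4 and 33.1 times that of SUS3 at day 10, and 4.17, 7.71 and 4.73 times at day 12. At day 13 the ratio was 1.24, 0.308 and 1.84, so that the genes were at like levels, and at day 15 it was 0.0054, 0.00194 and 0.0118. In val1 the ratio was 21.8, 25.5 and 29.3 at day 10, 7.71, 10.5 and 8.74 at day 12 and 4.9, 2.95 and 6.51 at day 13. At day 15 it was 0.0796, 0.012 and 0.106. At day 13 each val1 library still had more SUS2 than SUS3, and the lowest val1 ratio was above the highest wild-type ratio. The ratio does depend on which transcript forms are summed. In the reference forms alone, SUS2 and SUS3 averaged 24.8 and 33.8 deposited FPKM in val1 at day 13 and 14.6 and 88.0 in wild type. In the second quantification the same forms averaged 222 and 41.9 in val1 and 135 and 113 in wild type.

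**Figure D2:**
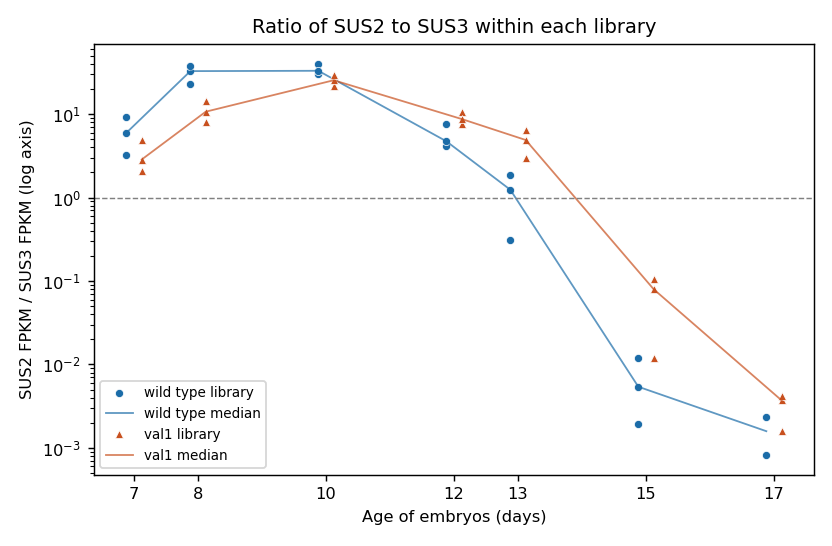
Ratio of SUS2 FPKM to SUS3 FPKM in each library on a log axis, against age in days, with circles for wild type, triangles for val1, lines through the group medians and a dashed line at equal levels. Wild type lies at or near the dashed line at day 13, from 0.308 to 1.84, while val1 lies above it, from 2.95 to 6.51, and both lie far below it at day 17.

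As a share of the summed FPKM of the 6 genes, SUS3 held 2.86% in wild type at day 10 and 3.81% in val1. The share was 16.1% and 10.2% at day 12, 52.1% and 18.5% at day 13 and 99.4% and 93.9% at day 15, with wild type first. By day 17 it was 99.8% and 99.7%. At days 8, 10, 12, 13 and 15 the libraries of the genotypes did not overlap in this share, and an exact two-sided permutation test gave p = 0.1 at each, the smallest that 3 libraries against 3 allow. At day 7 the same exact permutation test gave p = 0.2 and at day 17 p = 0.4. At days 8 and 10 the SUS3 share was higher in val1, and at days 12 to 15 it was lower.

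The summed level of the family moved far less than its parts after day 10. In wild type it was 4.85 ± 0.283 at day 7 (SD, n = 3) and 55.8 ± 17.9 at day 8. The sum was 388 at day 10, 359 at day 12, 284 at day 13, 360 at day 15 and 433 at day 17. In val1 it was 3.94, 22.8, 308, 316, 280, 309 and 433 from day 7 to day 17. At day 13 the genotypes were thus close in sum, at 284 and 280, while their make-up differed.

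The comparison of val1 with wild type at each age asks at which ages the mutant embryos had another level of a member. Of 21 tests, 3 members by 7 ages, 3 were called. Of all tested genes 3.31% were called at day 7, 3.38% at day 8, 5.42% at day 10, 8.52% at day 12, 17.7% at day 13, 17.5% at day 15 and 15.3% at day 17.

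At day 15 SUS2 was at 17.5 ± 11.9 in val1 and 2.17 ± 1.49 in wild type (SD, n = 3 each). The lowest val1 library, at 4.15, was just above the highest wild-type one, at 3.70. The difference was 2.58 (SE 0.46, adjusted p = 0.000107), and 11.6% of tested genes were called higher at that age. Without val1 at day 15, replicate 2, it was 3.38 (adjusted p = 1.82e-07), and with the libraries of that day fitted alone it did not pass (adjusted p = 0.179). The authors' deposited table lists 3 SUS2 transcript forms with day 15 log2 differences of 2.82, 2.92 and 3.09.

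At day 13 SUS2 was at 228 ± 23.6 in val1 and 140 ± 72.0 in wild type, and no wild-type library reached the lowest val1 one, at 201. The difference of 0.87 did not pass (SE 0.46, adjusted p = 0.207), and it was 0.34 (adjusted p = 0.785) without wild type at day 13, replicate 2. At day 8 SUS2 was at 20.5 ± 6.72 in val1 and 53.3 ± 17.3 in wild type, again without overlap, and the difference of -1.35 did not pass (adjusted p = 0.129). Without val1 at day 15, replicate 2, whose spread enters the shared error, the day 8 value passed (adjusted p = 0.0261). With replicate number as a block within each age, over the numbered libraries, SUS2 was called at days 8 and 13. That fit was added after seeing the data and is given at the end. At days 7, 10, 12 and 17 SUS2 differed by -0.47, -0.34, -0.08 and 0.67, with adjusted p from 0.468 to 0.969.

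SUS3 was lower in val1 at day 13, at 51.6 ± 15.5 against 144 ± 44.7 (SD, n = 3 each), a difference of -1.47 (SE 0.23, adjusted p = 1.15e-05). Its val1 libraries reached 68.4 at most and the wild-type ones 108 at least, and 6.97% of tested genes were called lower at that age. Without wild type at day 13, replicate 2, the difference was -1.24 (adjusted p = 0.000477). It did not pass with the libraries of that day fitted alone (adjusted p = 0.0522) or in the second quantification the authors deposited (-1.49, adjusted p = 0.236). The authors' deposited table lists SUS3 in 2 forms, which had day 13 differences of -1.43 and -1.45.

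At day 12 SUS3 was at 32.5 ± 8.03 in val1 and 58.9 ± 21.3 in wild type, and the groups overlapped. The difference was -0.81 (SE 0.23, adjusted p = 0.0192), with 3.1% of tested genes called lower. It did not pass without wild type at day 12, replicate 1 (-0.57, adjusted p = 0.171), without the unnumbered wild-type library of that day (-0.73, adjusted p = 0.0937), without val1 at day 12, replicate 3 (-0.61, adjusted p = 0.177), or with no scaling (-0.76, adjusted p = 0.0536). Nor did it pass with the libraries of that day fitted alone (adjusted p = 0.247) or in the second quantification (-0.85, adjusted p = 0.712). At days 7, 8, 10, 15 and 17 SUS3 differed by 0.16, 0.11, 0.08, -0.30 and -0.00, with adjusted p from 0.41 to 1.0.

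**Figure D3:**
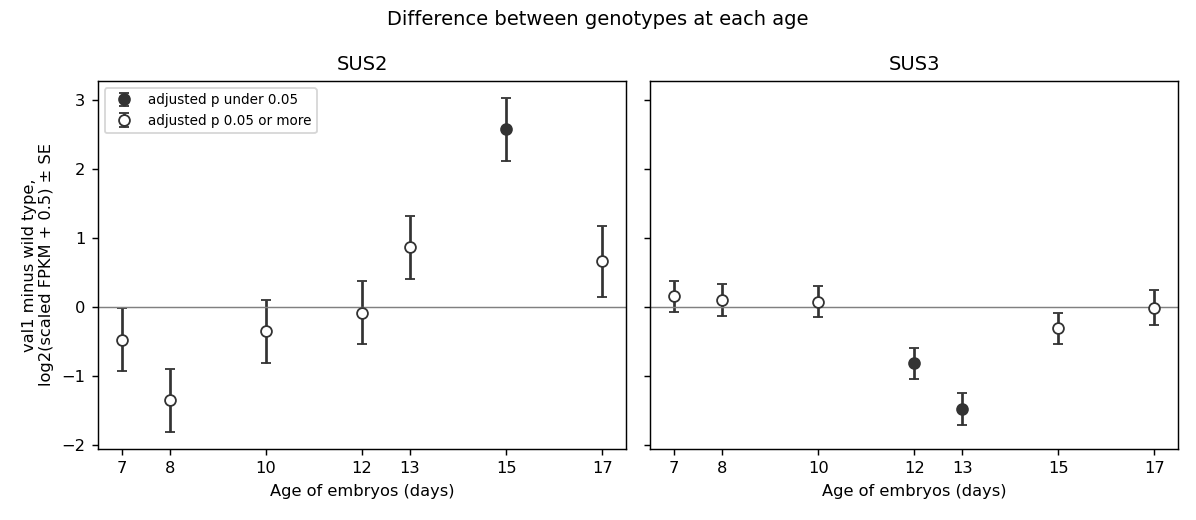
Difference of val1 from wild type in log2(scaled FPKM + 0.5) at each age for SUS2 (left) and SUS3 (right), against age in days, with bars of 1 standard error from limma; filled points have an adjusted p under 0.05. The filled points are SUS2 at day 15, at 2.58, and SUS3 at days 12 and 13, at -0.81 and -1.47.

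Averaged over the ages, SUS3 was lower in val1 by -0.32 (SE 0.09, adjusted p = 0.00485), where 13.1% of tested genes were called lower. SUS2 differed by 0.27 (adjusted p = 0.261) and by 0.38 (adjusted p = 0.0362) without val1 at day 15, replicate 2. SUS6 differed by -0.08 (adjusted p = 0.335). Whether the difference itself varied with age was tested as an interaction, which 16.7% of tested genes passed. SUS2 (adjusted p = 0.00107) and SUS3 (adjusted p = 0.00149) passed it and SUS6 did not (adjusted p = 0.51), so an average over ages does not stand for each day in SUS2 and SUS3.

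Single steps were also compared between genotypes. Of 18 such tests on the members none was called by limma. The step of SUS3 from day 13 to day 15 was larger in val1 by 1.17 (SE 0.32, adjusted p = 0.0647), and 1.23% of tested genes were called in that comparison. For SUS2 the same step differed by 1.71 (SE 0.65, adjusted p = 0.208) and the step from day 15 to day 17 by -1.91 (SE 0.69, adjusted p = 0.123). Leaving out 1 library moved the count of 0 to between 0 and 2. It was 1 without wild type at day 12, replicate 1 or 3, wild type at day 13, replicate 3, or val1 at day 13, replicate 2, and 2 without val1 at day 15, replicate 2. Those 2 were the SUS2 steps from day 13 to day 15, at 2.51 (adjusted p = 0.00835), and from day 15 to day 17, at -2.71 (adjusted p = 0.00412).

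Other tissue is a concern in dissected embryos, and SUS2 is also known from the endosperm. The endosperm markers summed to at most 0.216 at day 10, when SUS2 was highest, and to at most 0.333 at day 15 in either genotype. Of the 5, PHE1, FIS2, FWA and RGE1 were at 0 in all libraries of both genotypes at days 13 and 17 and in wild type at days 10 and 15. AGL62, also of that list, was above 0 in all but 1 library, with a median of 0.189. It was highest, at 0.527, in wild type at day 13, replicate 2. In val1 PHE1 and FIS2 were at 0 at day 10, and PHE1, RGE1 and FWA at day 15. At day 12 PHE1 and RGE1 were at 0 in both genotypes, FWA in wild type and FIS2 in val1. All libraries were of embryos, so whether these markers are on in endosperm of these ages is not known here. The sum of the seed coat markers was higher in val1 at the ages called, without overlap, but single genes of the list differed. At day 12 they summed to between 12.8 and 14.5 in val1 and between 7.73 and 12.6 in wild type. At day 13 they summed to between 8.57 and 12.3 in val1 and between 3.89 and 6.57 in wild type, and at day 15 to between 2.53 and 4.19 and between 1.5 and 2.3. MUM4 was at 13.7 in val1 at day 12, replicate 1, where the sum was at most 14.5 in that group. At day 12 TT12, TT2, TT1 and AT3G50990 of that list were at 0 in all libraries of both genotypes. At day 13 TT2 and TT1 were at 0 in all of them, and at day 15 BAN, TT2 and TT1. TT12 at days 13 and 15 and AT3G50990 at day 13 were at 0 in all val1 libraries, but not in all wild-type ones. The part of seed coat or endosperm RNA in the SUS2 and SUS3 levels and differences was not tested. SUS3 is also known from guard cells, whose markers KAT1 and FMA summed to at most 0.0883 at day 17 in wild type.

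SUS6 was the one other member past the filter, and only through libraries of days 7 and 8. It reached 1 FPKM in 4 of 41 libraries, with a highest deposited FPKM of 1.70 in wild type at day 8. Its scaled level in wild type was 0.524 ± 0.0725 at day 7, 0.642 ± 0.305 at day 8, 0.368 ± 0.174 at day 10, 0.0894 ± 0.0402 at day 12 and 0.112 ± 0.0288 at day 13 (SD, n = 3 each). In val1 it was 0.35 ± 0.045, 0.469 ± 0.198, 0.222 ± 0.137, 0.122 ± 0.0414 and 0.0681 ± 0.00842 at the same ages. At day 17 it was listed at 0 in each of the 5 libraries. Because SUS6 was tested only for its level at days 7 and 8, its differences from those ages are a description: from day 8 to day 10 they were -0.38 in wild type and -0.42 in val1. Of the later steps, the one from day 10 to day 12 in wild type was called (-0.54, SE 0.16, adjusted p = 0.0109), where 14.6% of tested genes fell.

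The call did not hold without wild type at day 10, replicate 1 (-0.39, adjusted p = 0.106). Between genotypes SUS6 differed by -0.27 to 0.21, with adjusted p of 0.431 or more.

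An antisense transcript of 771 bases was assembled at SUS6. At day 8 it averaged 1.19 deposited FPKM in wild type against 0.495 in val1, and at day 7 0.579 against 0.299. Strand is not stated for the libraries, so reads of SUS6 and of this transcript cannot be told apart with certainty. SUC2, SEOR1, APL and CalS7, markers of the phloem where SUS6 is known to act, summed in wild type to between 2.95 and 3.41 at day 7, 11.0 and 13.9 at day 8 and 77.5 and 88.4 at day 10. They summed to between 103 and 141 at day 13, 31.5 and 102 at day 15 and 1.49 and 4.93 at day 17. Their sum was thus highest at ages at which SUS6 was already near 0, and both were low at day 17. Over all libraries SUC2 reached 144, CalS7 10.6, APL 6.56 and SEOR1 2.53, so the highest sums were mostly SUC2. SEOR1 was at 0 in 21 libraries.

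SUS1, SUS4 and SUS5 were not tested. SUS1 was above 0 in 29 of 41 libraries, with its highest deposited FPKM of 0.895 in val1 at day 7, replicate 1, and 0.544 as the highest wild-type value, also at day 7. From day 10 on its group means were at most 0.0545. SUS4, its closest relative, was above 0 in 7 libraries and reached 0.216, in the same val1 library as SUS1. SUS5 was above 0 in 3 libraries, all of val1, and reached 0.0405. Levels so low rest on few reads, and no order among them was drawn.

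**Figure D4:**
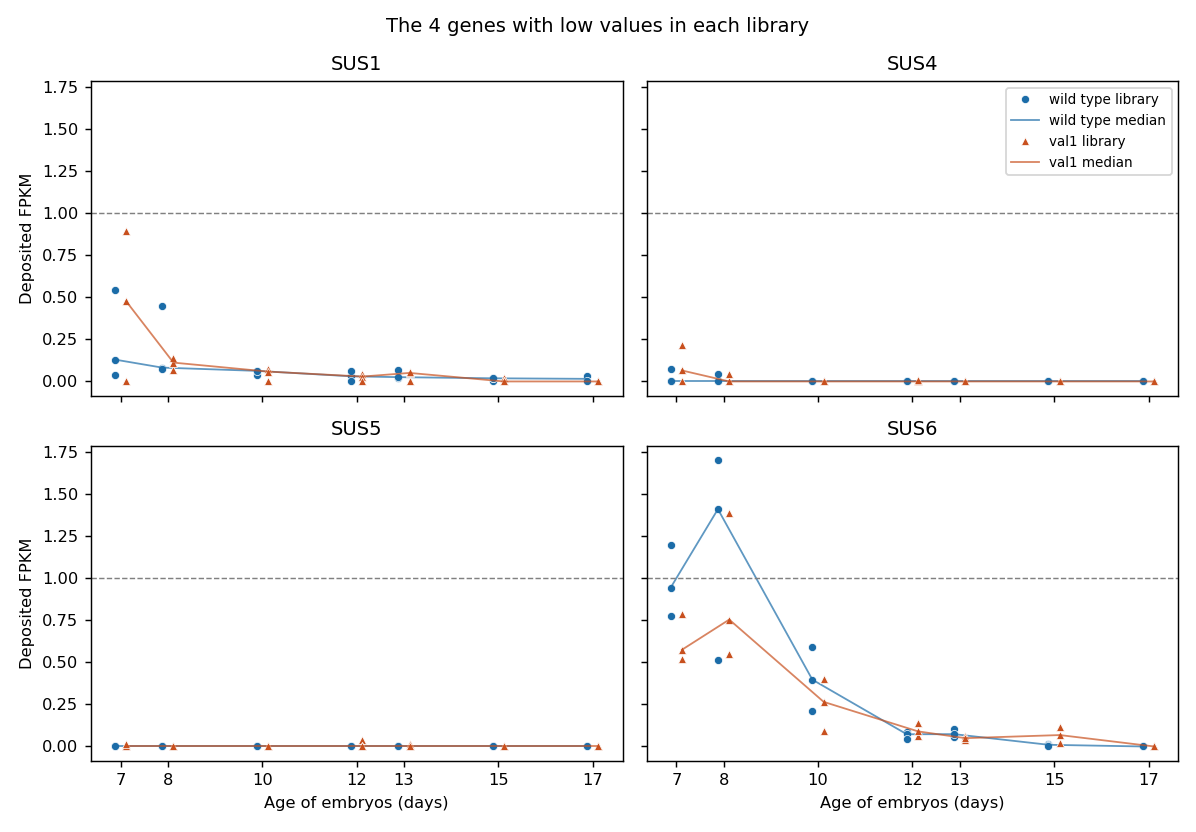
Deposited FPKM of SUS1, SUS4, SUS5 and SUS6 in each library, on a linear axis, against age in days, with circles for wild type, triangles for val1, lines through the group medians and a dashed line at 1 FPKM. SUS6 alone passes the dashed line, in 4 libraries of days 7 and 8, and all 4 genes lie near 0 from day 12 on.

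Of 53988 listed transcripts, 11 forms made up the 6 genes. SUS2 had 3 forms, and a form of 5155 bases held a median of 65.7% of its FPKM over the 36 libraries with SUS2 at 1 FPKM or more. The reference form of 2511 bases held 14.2% and another of 2789 bases 20.0%. The long form was assembled together with the gene downstream on the same strand, AT5G49180, a putative pectin methylesterase gene 165 bases away. That neighbour was itself low, at 6.04 and 2.94 deposited FPKM for its 2 forms at day 10 in wild type, against 267 for the long SUS2 form. In a second quantification deposited by the authors the reference form held a median of 97.7% of SUS2. How reads are split between the SUS2 forms thus differed between the deposited sheets, while no SUS2 difference changed direction with the second sheet. SUS3 was simpler, with a median of 87.6% in its reference form. SUS6 had a median of 73.0% in its longer reference form. The gene name SUS2 in the deposited table belongs to AT1G80070, which is no sucrose synthase, and the sucrose synthase AT5G49190 is listed there as SSA.

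Genes whose group means followed a member most closely were found by Pearson r over the 14 group means, as a description. For SUS2 these were TRM13 (AT2G45900, r = 0.9958), AGP17 (0.99), an arabinogalactan protein gene, and AT1G28030 (0.9877), and 667 genes had r over 0.9. TRM13 was at 1.01 in wild type at day 7, 80.4 at day 10, 26.9 at day 13 and 0.806 at day 15, where val1 had 3.16. For SUS3 they were HDA2, a histone deacetylase gene (0.9981), AT3G15260 (0.9977) and ckl10 (0.9976), with 2384 genes over 0.9. At day 13 HDA2 had 28.9 in wild type against 16.4 in val1, and by day 17 wild type had 47.6. For SUS6 they were AT1G66940 (0.9748), AT3G25130 (0.9739) and HEME1 (0.9732), with 1335 over 0.9. All points share the same 41 libraries, and most genes changed with age, so high values of r were common.

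Downstream of SUS2 and SUS3, UGP1 and UGP2 encode the enzymes that turn UDP-glucose into glucose 1-phosphate. UGP2 rose along with SUS3 up to day 12 in wild type, from 37.0 ± 9.55 at day 8 to 156 ± 20.3 at day 10 and 414 ± 120 at day 12 (SD, n = 3 each), but fell by 0.62 (adjusted p = 0.00638) from day 13 to day 15. UGP1 was at 42.6 ± 1.49 at day 10 and fell by 1.66 (adjusted p = 3.47e-07) in wild type and by 1.12 (adjusted p = 0.000104) in val1 between days 13 and 15. Like SUS2, it was higher in val1 at day 15, by 1.14 (adjusted p = 0.000462), at 11.9 ± 3.3 against 5.18 ± 1.73.

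Of the invertases, the other route of sucrose cleavage, 7 of 9 neutral and alkaline and 4 of 8 cell wall and vacuolar genes were tested. From day 13 to day 15, when SUS2 fell, 4 neutral and alkaline genes fell and 2 rose in wild type and 5 fell and 2 rose in val1, against 28.8% and 24.7% of tested genes in wild type and 29.2% and 24.0% in val1. Of the cell wall and vacuolar genes 1 fell in wild type and 3 in val1. CINV2 had the largest of these falls, 3.08 (adjusted p = 4.65e-10) in wild type and 3.66 (adjusted p = 1.58e-11) in val1. A/N-InvC fell by 1.75 (adjusted p = 2.43e-06) in wild type and FRUCT5, of the other list, by 1.85 (adjusted p = 1.82e-07). CINV2 also differed between genotypes: at day 13 it was at 14.7 ± 4.48 in val1 against 6.45 ± 3.25 in wild type (1.22, adjusted p = 0.0034). At day 13 the neutral and alkaline list had 3 genes higher and 1 lower in val1, with a median of 0.40, and the cell wall and vacuolar list 2 higher, with 0.70. Of all tested genes 10.7% were higher and 6.97% lower then, with a median of 0.01. At day 15 each list had 2 higher and 0 lower, with medians of 0.45 and 0.41, when 11.6% of all tested genes were higher and 5.98% lower, with a median of 0.01.

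Genes of sucrose synthesis were split. SPS3F was higher in val1 at day 13 by 0.83 (adjusted p = 0.00206) and SPS1F lower by -1.17 (adjusted p = 1.6e-05), and 1 of 6 tested genes of that list was higher and 3 lower. Of all tested genes 10.7% were higher and 6.97% lower at that age. Of the 8 sucrose transporter genes SUC and SWEET, SUC2 and SUT4 were higher in val1 at day 17, by 3.20 (adjusted p = 1.08e-05) and 1.13 (adjusted p = 0.0025), when 9.49% of tested genes were higher. Of 5 tested fructokinases and hexokinases, which phosphorylate the fructose and glucose that cleavage releases, HXK1 alone was called at days 13 and 15, higher in val1 by 0.57 (adjusted p = 0.0187) and 0.82 (adjusted p = 0.000794). Of all tested genes 10.7% and 11.6% were higher at those ages. At day 17 HXK1 was higher by 0.82 (adjusted p = 0.00268) and HXK2 by 0.53 (adjusted p = 0.0155), when 9.49% of tested genes were higher.

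Starch and oil genes fell in the step in which SUS2 fell. From day 13 to day 15, 9 of 13 tested starch synthesis genes fell in wild type and 1 rose, with a median of -0.77, and 8 fell and 2 rose in val1, with -0.51. Of all tested genes 28.8% fell and 24.7% rose in wild type and 29.2% and 24.0% in val1. APL1, a subunit of the enzyme that makes ADP-glucose, fell by 2.62 (adjusted p = 1.74e-06) in wild type and was higher in val1 at day 15 by 3.06 (adjusted p = 7.84e-07), at 28.0 ± 12.1 against 3.47 ± 2.54. All 9 genes of the list of WRI1, a transcription factor of oil synthesis, and the plastid glycolysis and fatty acid genes it is known to act on, fell in both genotypes. Their medians were -1.81 and -1.45, against -0.03 and -0.04 over all tested genes, of which 28.8% and 29.2% fell. WRI1 was at 284 ± 17.3 in wild type at day 10, when SUS2 was highest, at 138 ± 25.9 at day 13 and at 40.5 ± 15.6 at day 15. In val1 at day 15 it was at 54.7 ± 13.8, and 3 genes of the list were higher there and 0 lower, with a median difference of 0.57. At that age 11.6% of all tested genes were higher and 5.98% lower. ENO1, a plastid enolase, was one of them at 1.15 (adjusted p = 0.0113).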

How the data were processed

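RNA of wild-type and val1 embryos of 7 ages was sequenced as paired reads of 75 bases. Per the submitters' processing notes, TopHat2, StringTie and TAIR10 were used; versions and roles are not given in the sources used here. Deposited FPKM, per the file headers, is listed for each transcript of an assembly beside its length and class code, and multiplied by length it has 1 total in all libraries. A second sheet that the authors deposited under the name of counts holds values that are 99.9997% not whole above 0, with totals that differ, and was used as an alternative quantification on an FPKM scale. The authors' deposited table of comparisons gives a log2 difference per age, an F score and an adjusted p-value per transcript, for transcripts past their threshold. The columns of 34 libraries matched a numbered sample. The other 7, the replacement libraries of days 8 and 12 and those of val1 at day 17, matched a group alone and are called unnumbered.

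Transcripts with class code = or j (by the usual meaning, a matching structure or a shared splice junction) were summed per gene. Scaling factors of 0.533 to 2.03 came from trimmed log ratios (30% and 5% trimmed). The filter asked for 1 FPKM in 2 or more libraries. Then limma 3.58.1 (R 4.3.3) was fitted to log2(scaled FPKM + 0.5), with 1 mean for each of the 14 groups, a trended prior and 27 residual degrees of freedom. The procedure was tested on simulated data. Adjusted p-values are Benjamini-Hochberg over 18389 genes. Alternatives were the scaling, the pseudocount, the filter, the class code, the second sheet, the groups of a contrast alone, the replicate block and leaving out each library. Members and gene lists were chosen with earlier results of these data known. Genes named from a list were the up to 3 called ones with the largest difference in a comparison, and genes most like a member the 3 with the highest r. Upstream windows come from RefSeq TAIR10.1. Absolute depth is unknown, so no interval or floor from counts is given. Tables and figures were made with Python 3.11.15, pandas 2.3.3, numpy 2.4.6 and matplotlib 3.10.9.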

Additional observations from a re-analysis of the deposited data

Results flagged for a closer look

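The difference of val1 from wild type in SUS2 varied with age (interaction adjusted p = 0.00107 with limma). It was -1.35 at day 8, which was not called (adjusted p = 0.129 with limma), and 2.58 at day 15 (adjusted p = 0.000107). The val1 libraries lay below all wild-type libraries at day 8. At day 15 they lay above them, with 4.15 the lowest in val1 and 3.70 the highest in wild type. The difference in SUS3 also varied with age (interaction adjusted p = 0.00149 with limma), from 0.16 at day 7 to -1.47 at day 13 and -0.30 at day 15.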

How the results depend on the processing

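Of the values given for single members, 2504 kept direction and side of the threshold, 61 no longer passed, 7 newly passed and 10 changed sign; the last were all near 0. For the counts of calls and the SUS3 shares 331 values stayed close and 38 moved. With the second sheet the calls between genotypes at single ages went from 3 to 1, those of the average from 1 to 0, those of the interaction from 2 to 1 and those of steps from 21 to 11, while SUS2 at day 15 was 3.97 (adjusted p = 0.00143) and SUS3 at day 13 was -1.49 (adjusted p = 0.236). With the 2 groups of a contrast fitted alone there were 0 calls at single ages: SUS2 at day 15 had adjusted p = 0.179 and SUS3 at day 13 0.0522. The shares of all tested genes called in these fits are not given here. Whether the lost calls are particular to the SUS genes thus cannot be told. No scaling or a pseudocount of 1 gave 1 step difference in place of 0. Leaving out 1 library gave 2 to 4 calls at single ages, 1 to 2 on average, 2 in the interaction, 6 for age, 19 to 22 of steps and 0 to 2 step differences. SUS6 is in these counts, its tests for change with age and its falls from day 8 included. Those are a description, since SUS6 passed the filter only through libraries of days 7 and 8. Why the counts moved was not tested. Left unscaled, the median difference over tested genes was -0.63 in wild type from day 8 to day 10, with 12.9% of calls higher against 49.1% when scaled.

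With forms of class code = alone, which leave out most of SUS2, the SUS3 share from day 7 to day 17 was 33%, 15.8%, 14.9%, 52.4%, 84.4%, 99.9% and 100% in wild type and 43%, 32.1%, 19.8%, 41%, 56.3%, 98.8% and 100% in val1. With the second sheet it was 0%, 0.659% and 1.63% at days 7, 8 and 10 and 100% at days 15 and 17 in wild type, and 0%, 3.67%, 2.81% and 7.86% at days 7, 8, 10 and 12 and 100% at day 17 in val1.

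SUS3 at day 17 (-0.00) was 0.01 with median-of-ratios scaling, 0.03 with class code = alone, 0.02 with the second sheet and -0.08 to 0.07 with 1 library left out. So left out, SUS3 at day 7 was -0.01 to 0.32, SUS2 at day 12 -0.14 to 0.01 and the val1 step of SUS2 from day 10 to day 12 -0.12 to 0.03.

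Libraries of the same number shared deviations with correlations of 0.075 to 0.604, over 0.1 in 15 of 16 pairs, 1 short of the rule for pairs, and nothing in the labels says that a number marks a shared batch, so the block stands as an alternative. As a hint from the data, not the design, 23 of 24 libraries at the ages with 3 pairs correlated best with their own number. With the number as a replicate block over the 34 numbered libraries, 2 of the 3 calls at days 7 to 15 passed, and SUS3 at day 12 was -0.77 (adjusted p = 0.111; 0.188 in those libraries without the block). A block within each age, added after seeing the data, gave 5 calls: the 3 of the fit without it and SUS2 at day 8 (-1.44, adjusted p = 0.00796) and day 13 (0.87, adjusted p = 0.0122).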
